A study of Mus musculus with 2 samples.

Results

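The 9 genes described here are those by which inhibitory and cholinergic neurons of the retina are recognised, Gad1, Gad2, Slc32a1, Slc6a9, Slc6a5, Slc17a8, Chat, Slc5a7 and Slc18a3. They were chosen by their symbols, without use of their values, and each symbol matched exactly 1 of the 32227 genes in the deposited gene table. Each gene was followed through every nucleus of 2 single-nucleus RNA libraries, by annotated cell class, by amacrine cluster and by genotype.

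Amacrine cells are the interneurons of the inner retina, and nearly all of them release either GABA or glycine onto bipolar cells, ganglion cells and each other. Gad1 and Gad2 encode the glutamate decarboxylases that make GABA, and Slc32a1 encodes the vesicular transporter that loads both GABA and glycine into synaptic vesicles. Slc6a9 encodes the plasma membrane glycine transporter by which glycinergic amacrine cells are usually recognised, Slc6a5 encodes the neuronal glycine transporter best known from spinal cord, and Slc17a8 encodes a vesicular glutamate transporter found in a small subset of glycinergic amacrine cells. Starburst amacrine cells, which shape direction-selective responses, release acetylcholine along with GABA. Acetylcholine is made by choline acetyltransferase (Chat) from choline taken up by the high-affinity transporter Slc5a7, and it is packaged by the vesicular transporter Slc18a3.

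The nuclei came from whole retinas of P21 mice of the C57 BL/6J strain. The Cre- group, whose genotype label is WT, consisted of age-matched animals without Cre. In the Tet tcKO group the loxP-flanked Tet1, Tet2 and Tet3 genes, which encode the enzymes that oxidise 5-methylcytosine, were deleted with the Chx10::Cre-GFP transgene, which is active in retinal progenitor cells and is known to be mosaic. Cre-carrying animals were in-crossed so that the offspring held both copies of the transgene. Each genotype was sequenced as 1 library made from pooled animals, and the pool of origin of a nucleus is not recorded in the cell table, so there were no replicates and no test of a genotype difference was possible. The Cre- library held 7357 nuclei and 11510585 unique molecular identifiers (UMIs, each taken as 1 captured transcript), with a median of 1107 UMIs per nucleus. The Tet tcKO library was deeper, with 6766 nuclei, 16590747 UMIs and a median of 1836.5. Levels are given as UMIs per 1000000 UMIs of the same population of nuclei (CPM) with exact 95% Poisson intervals, ratios with exact conditional intervals and shares of nuclei with exact Clopper-Pearson intervals, and these intervals cover counting error only. A count of 0 is given with the level that 3 UMIs would have had. Because the kit reads transcript ends and levels are not corrected for length, 1 gene is compared between populations and the 9 genes are not ranked against each other. The level of Tet1 was 50.2 CPM in Cre- against 61.2 CPM in Tet tcKO, that of Tet2 was 105 and 139 CPM, and that of Tet3 was 180 and 174 CPM; these counts cover the whole genes, not the floxed exons, and so check neither the deletion nor the labels.

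The annotation placed 403 Cre- nuclei, 5.48% of that library (4.97 to 6.02), and 1043 Tet tcKO nuclei, 15.4% (14.6 to 16.3), in the amacrine class. All 6 amacrine markers checked stood above rods and cones in Cre- and 5 of 6 did in Tet tcKO. The summed level of these markers, which are Tfap2a, Tfap2b, Tfap2c, Pax6, Meis2 and Prdm13 and none of the 9 genes, was 2238 CPM in Cre- and 2787 in Tet tcKO amacrine nuclei, compared with 905 and 1234 CPM in rods and cones. In bipolar-annotated nuclei the sum was 1175 and 1308 CPM, and 6 of 6 and 4 of 6 markers stood above rods and cones. The number of markers above rods and cones thus does not set the amacrine class apart, whereas the sum was higher in amacrine nuclei. Rods and cones served as the population that should lack the 9 genes. Its makeup differed by genotype, with 5214 rods and 265 cones in Cre- and 6 rods and 3225 cones in Tet tcKO. The median depth of rods and cones was 1046 UMIs in Cre- and 1714 in Tet tcKO, close to the 1065 and 1736 UMIs of the amacrine nuclei of the same library. The summed level of 7 rod markers inside amacrine nuclei was 2431 CPM in Cre- and 1072 in Tet tcKO, compared with 9162 and 4800 CPM in rods and cones, and the part of photoreceptor RNA in the amacrine values below was not tested. Among the 10 genes that led each cluster by fold, clusters 13 and 24 held a starburst or amacrine marker, whereas amacrine clusters 12, 23 and 27 held no marker of any class. Müller clusters 14 and 30 held the vascular marker Flt1 and no marker of their own there, so Müller glia are described by cluster number. No bipolar cluster held 20 or more nuclei in both libraries, so bipolar levels are given for each library without a ratio.

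**Figure D1:**
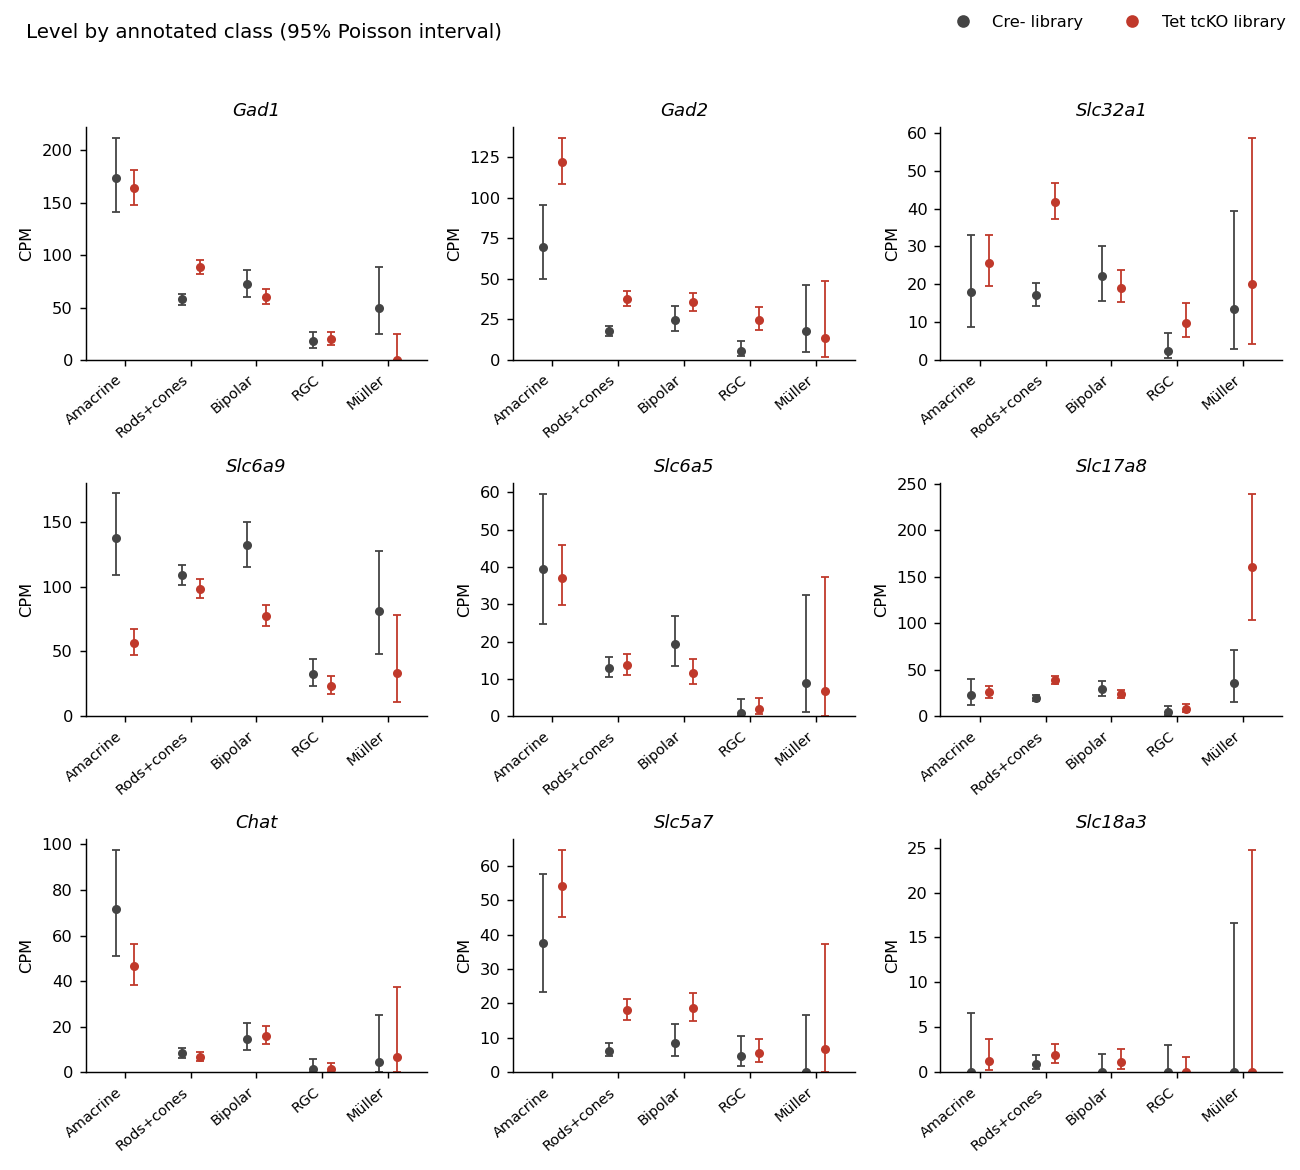
Level of each gene in CPM in nuclei annotated as amacrine cells, rods and cones, bipolar cells, retinal ganglion cells (RGCs) and Müller glia, for Cre- and Tet tcKO. Bars are exact 95% Poisson intervals of the counts. Gad1, Gad2, Slc6a5, Chat and Slc5a7 stood higher in amacrine nuclei than in rods and cones in both libraries, whereas Slc32a1, Slc17a8 and Slc18a3 did not, and Slc6a9 was level with rods and cones in Cre- and below them in Tet tcKO.

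Of the GABA-synthesising enzymes, Gad1 was detected with 97 UMIs in Cre- amacrine nuclei, 174 CPM (141 to 212), and with 384 UMIs in Tet tcKO amacrine nuclei, 164 CPM (148 to 181). The amacrine level differed between the libraries by less than its counting error, with a log2 ratio of Tet tcKO to Cre- of -0.08 (-0.41 to 0.25), but the ratio was -0.67 without the largest amacrine cluster of each library and -0.62 with the rod and cone level subtracted. Amacrine nuclei carried 3.01 times the rod and cone level in Cre- and 1.85 times in Tet tcKO. Gad1 in rods and cones stood at 57.7 CPM (52.4 to 63.4) in the Cre- library and 88.7 CPM (82.0 to 95.7) in Tet tcKO, giving a log2 ratio of 0.62 (0.44 to 0.80). Between cones alone, which are few in Cre-, it stood at 79.5 and 88.6 CPM, and the log2 ratio was 0.16 (-0.18 to 0.51). Ganglion cells, the output neurons of the retina, held 17.9 CPM (11.2 to 27.1) and 19.7 CPM (14.2 to 26.6). Gad1os, which overlaps Gad1 on the other strand, stood at 17.9 and 15.4 CPM in amacrine nuclei, and reads of such a pair cannot be told apart because the use of strand in counting is not stated. Bipolar-annotated nuclei, from different clusters in each library, held 72.5 and 60.3 CPM. Horizontal cells, the inhibitory neurons of the outer retina, were few, with 90 Cre- and 37 Tet tcKO nuclei, and held 4 Gad1 UMIs in each library, 25.3 CPM (6.88 to 64.7) and 36.0 CPM (9.82 to 92.3). None of the 9 genes had more than 4 UMIs in horizontal cells of either library, so no level could be set for that class.

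Gad2, the synapse-associated isoform of the enzyme, gave 39 UMIs and 69.8 CPM (49.7 to 95.5) in Cre- amacrine nuclei. Tet tcKO amacrine nuclei held 286 UMIs, 122 CPM (108 to 137), giving a log2 ratio of 0.81 (0.32 to 1.33). Rods and cones differed in Gad2 in the same direction. The level in rods and cones was 18.0 CPM (15.1 to 21.2) in the Cre- library and 37.8 CPM (33.5 to 42.5) in Tet tcKO, giving a log2 ratio of 1.07 (0.77 to 1.38), and between cones alone it was 1.04 (0.37 to 1.79). In ganglion cells 7 Gad2 UMIs gave 5.69 CPM in Cre- and 53 UMIs gave 24.9 CPM in Tet tcKO, but different clusters filled that class. Cluster 8 held 394 Cre- nuclei and 29 Tet tcKO nuclei, cluster 15 held 4 and 217, and in cluster 2, with 111 and 185 nuclei, Gad2 stood at 6.17 CPM from 3 UMIs and 11.2 CPM from 9 UMIs. Within each library amacrine nuclei stood 3.89-fold above rods and cones in Cre- and 3.23-fold above them in Tet tcKO. The amacrine log2 ratio was smaller, at 0.33, when the largest amacrine cluster of each library was left out.

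The clusters within the amacrine class were filled differently by the libraries. Cluster 27 held 256 Cre- and 21 Tet tcKO nuclei, cluster 12 held 14 and 357, cluster 24 held 35 and 321, cluster 23 held 26 and 222, and cluster 13 held 72 and 122. Because the clusters were made from the expression of all genes, the 9 described here included, differences among clusters are given as a description. Gad1 was present in every well-filled cluster, and among clusters of 20 or more nuclei its highest level was in cluster 13, with 36 UMIs and 310 CPM (217 to 429) in the Cre- library and 69 UMIs and 267 CPM (208 to 338) in Tet tcKO. It stood at 117 CPM (81.2 to 162) in cluster 27 of Cre- and at 180 CPM (156 to 207) in cluster 12 of Tet tcKO, the largest cluster of each library. Gad2 was spread differently, with 2 UMIs and 17.2 CPM in cluster 13 of Cre- and 7 UMIs and 27.1 CPM in cluster 13 of Tet tcKO, against 169 and 130 CPM in cluster 24 and 152 CPM (129 to 177) in cluster 12 of Tet tcKO. Within single clusters the Gad2 log2 ratio was 0.66 (-1.74 to 3.96) in cluster 13 and 1.73 (-0.81 to 7.06) in cluster 23, the latter from 1 and 55 UMIs. It was -0.38 (-1.35 to 0.75) in cluster 24 and -0.81 (-6.18 to 1.85) in cluster 27. No cluster alone showed a difference beyond counting error, but the intervals of clusters 13, 23 and 27 also held the class value of 0.81. The counts therefore could not show whether the class difference was present inside those clusters. Cluster 13 contributed 37.1% of the amacrine Gad1 UMIs in Cre- and 18.0% in Tet tcKO, but 5.13% and 2.45% of those of Gad2.

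**Figure D2:**
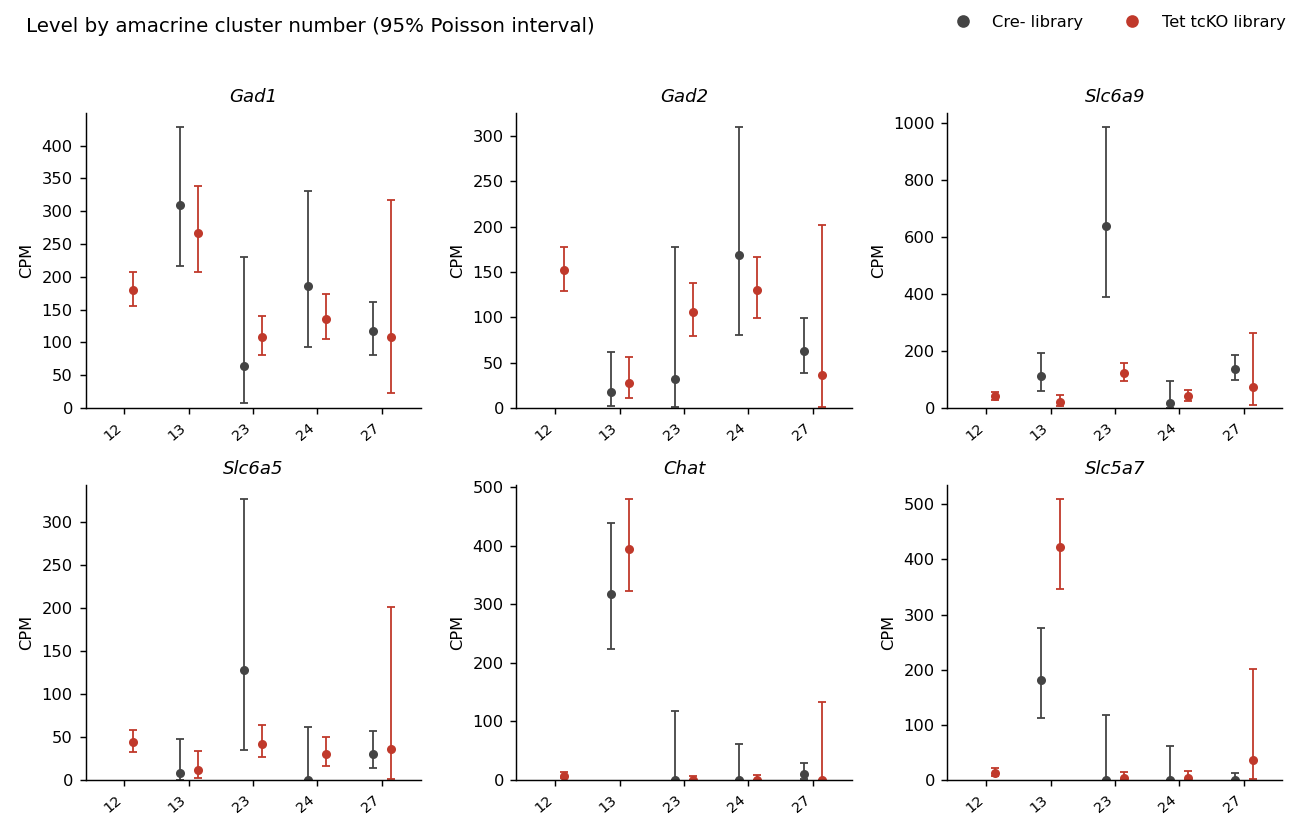
Level of Gad1, Gad2, Slc6a9, Slc6a5, Chat and Slc5a7 in CPM in the authors' amacrine clusters 12, 13, 23, 24 and 27, for Cre- and Tet tcKO. Bars are exact 95% Poisson intervals, and clusters with fewer than 20 nuclei in a library are not drawn for it. Chat and Slc5a7 were concentrated in cluster 13, where Gad1 was also at its highest and Gad2 stood at 17.2 and 27.1 CPM, and the level of Slc6a9 in cluster 23 was 639 CPM in Cre- against 123 CPM in Tet tcKO.

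The start regions of the genes differ in their content of CG dinucleotides, the sites at which DNA methylation and the TET enzymes act. The 250 bases upstream of the canonical start are shown for both decarboxylase genes and for the choline transporter, because they differ in CG content and because Gad2 and Slc5a7 had the largest positive log2 ratios over all nuclei among the members above 10 CPM. Sequences were read from the GRCm39 genome with GENCODE vM39 starts and run 5′ to 3′ on the gene's strand, with each CG in capitals. Gad1 spans chr2:70383416-70432372, Gad2 chr2:22511862-22583886 and Slc5a7 chr17:54580020-54606076. The windows are chr2:70391353-70391602 on the plus strand for Gad1, chr2:22511612-22511861 on the plus strand for Gad2 and chr17:54606077-54606326 on the minus strand for Slc5a7.
Gad1: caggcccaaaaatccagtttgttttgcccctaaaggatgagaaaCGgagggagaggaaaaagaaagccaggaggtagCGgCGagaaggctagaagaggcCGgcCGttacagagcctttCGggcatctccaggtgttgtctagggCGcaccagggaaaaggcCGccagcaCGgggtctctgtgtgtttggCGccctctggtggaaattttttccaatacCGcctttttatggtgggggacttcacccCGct
Gad2: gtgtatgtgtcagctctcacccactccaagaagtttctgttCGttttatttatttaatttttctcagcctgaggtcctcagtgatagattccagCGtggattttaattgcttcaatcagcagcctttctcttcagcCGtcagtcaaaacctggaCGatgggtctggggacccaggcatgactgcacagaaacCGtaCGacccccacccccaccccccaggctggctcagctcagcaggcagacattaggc
Slc5a7: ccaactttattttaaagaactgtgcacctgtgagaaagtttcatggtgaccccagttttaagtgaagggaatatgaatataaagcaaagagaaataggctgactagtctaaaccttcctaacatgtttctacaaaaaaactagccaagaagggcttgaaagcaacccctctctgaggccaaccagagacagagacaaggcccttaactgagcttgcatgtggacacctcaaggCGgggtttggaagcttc
The Gad1 window holds 12 CG, the Gad2 window 6 and the Slc5a7 window 1. Of the 250-base windows upstream of 21770 protein-coding genes, 36.9% hold at least as many CG as that of Gad1, 58.7% as many as that of Gad2 and 92.6% as many as that of Slc5a7. The window of Slc32a1 holds 12 CG, those of Slc6a9 and Slc6a5 hold 10 each, that of Chat holds 8, that of Slc17a8 holds 3 and that of Slc18a3 holds 21. Methylation of these windows was not analysed here, and the counts of CG are a description of the sequence alone.

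Slc32a1, the transporter that fills inhibitory vesicles, was not concentrated in amacrine nuclei relative to rods and cones. It gave 10 UMIs and 17.9 CPM (8.59 to 32.9) in Cre- amacrine nuclei and 60 UMIs and 25.6 CPM (19.6 to 33.0) in Tet tcKO, giving a log2 ratio of 0.52 (-0.46 to 1.65). In rods and cones the level was 17.2 CPM (14.3 to 20.4) in the Cre- library and 41.7 CPM (37.2 to 46.6) in Tet tcKO, giving a log2 ratio of 1.28 (0.98 to 1.59). The amacrine level was therefore not distinguishable from that of rods and cones in Cre-, with a log2 ratio of 0.06 (-1.03 to 0.99), and lay below it in Tet tcKO, with a log2 ratio of -0.70 (-1.13 to -0.30). Between cones alone the genotype log2 ratio was 1.26 (0.57 to 2.03). Against ganglion cells, which held 3 UMIs in Cre- and 21 in Tet tcKO, the amacrine level was 7.34-fold higher, a log2 value of 2.88 (0.92 to 5.38), and 2.60-fold higher, a log2 value of 1.38 (0.64 to 2.17). An amacrine signal of Slc32a1 above photoreceptor background was therefore not detectable at this depth, while one above ganglion cells was. Slc32a1 lies at chr2:158452605-158464883 on the plus strand, and 2 gene models, Gm14204 and Gm14205, overlap it on the other strand. Gm14204, named after its values were seen, stood at 89.5 CPM (66.4 to 118) in Cre- amacrine nuclei and 61.9 CPM (52.2 to 72.8) in Tet tcKO amacrine nuclei, against 21.8 and 19.7 CPM in rods and cones and 4.06 and 7.50 CPM in ganglion cells. Gm14205 had no UMI in any of these populations.

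The glycine transporter Slc6a9 showed the widest genotype difference within the amacrine class. It gave 77 UMIs in Cre- amacrine nuclei, 138 CPM (109 to 172), and 133 UMIs in Tet tcKO amacrine nuclei, 56.8 CPM (47.5 to 67.3), giving a log2 ratio of -1.28 (-1.70 to -0.86). It was the only one of the 8 members with a ratio there to differ by 2-fold or more. Over 10831 genes at 10 CPM or more in amacrine nuclei of either library, 6.44% were 2-fold or more higher in Tet tcKO and 6.44% were 2-fold or more lower, and the middle 90% of log2 ratios ran from -1.12 to 1.12. The even split of 697 higher and 698 lower genes became 892 and 555 under TMM scaling and 864 and 642 under median-of-ratios scaling, which set the library totals by the bulk of genes. By cluster, Slc6a9 was lower in Tet tcKO in clusters 23 and 13, which held enough UMIs to show a direction. In cluster 23 the level was 639 CPM (390 to 987) from 20 UMIs in 13 of 26 Cre- nuclei and 123 CPM (94.7 to 157) from 64 UMIs in Tet tcKO nuclei, giving a log2 ratio of -2.38 (-3.12 to -1.57). In cluster 13 it was 112 CPM (59.6 to 191) from 13 UMIs and 19.4 CPM (6.29 to 45.2) from 5 UMIs, giving a log2 ratio of -2.53 (-4.37 to -0.95). Clusters 12, 24 and 27 held too few Slc6a9 UMIs in at least 1 library to show a direction, with 2 and 43 UMIs, 1 and 19 UMIs, and 41 and 2 UMIs in Cre- and Tet tcKO. The largest cluster of each library stood at 137 CPM (98 to 185) for cluster 27 of Cre- and at 40.3 CPM (29.2 to 54.3) for cluster 12 of Tet tcKO, and without these clusters the amacrine log2 ratio was -0.98.

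Slc6a9 was also present outside the amacrine class. Rods and cones held 109 CPM (102 to 117) in the Cre- library and 98.4 CPM (91.4 to 106) in Tet tcKO, giving a log2 ratio of -0.14 (-0.29 to 0.00), and bipolar-annotated nuclei held 132 CPM (116 to 150) and 77.4 CPM (69.4 to 86.0). The amacrine level was thus not set apart from rods and cones in Cre-, with a log2 ratio of 0.34 (-0.01 to 0.68), and was below them in Tet tcKO, with a log2 ratio of -0.79 (-1.07 to -0.52). Between cones alone, Slc6a9 stood at 89.2 and 98.5 CPM. Ganglion cells held less, 32.5 and 23.4 CPM, and the amacrine level was 4.24-fold and 2.42-fold above theirs. Cluster 23 stands out within the amacrine class, because its Slc6a9 level in Cre- lay far above that of rods and cones. The summed level of 8 markers of AII and other glycinergic amacrine cells was 5719 CPM in cluster 23 of Cre- and 1864 in Tet tcKO. Rods and cones held 1508 and 1376 CPM. Of the 8 markers, 5 stood above rods and cones in cluster 23 of Cre-, where Ebf2 had no UMI, and 6 in Tet tcKO. The sum was 2277 and 2166 CPM in ganglion cells and 2201 and 2245 CPM in Müller glia. Cluster 23 of Tet tcKO was thus below both of these classes. The 5 horizontal markers, which share Prox1 with this list, were also raised in cluster 23. They summed to 831 CPM in Cre- and 240 in Tet tcKO, against 226 and 185 CPM in rods and cones, and 4 of 5 stood above in each library. The sum of the 8 markers is therefore not particular to a glycinergic identity. Slc6a9, at chr4:117691703-117732395 on the plus strand, overlaps Gm17114, Ccdc24 and B4galt2 on the other strand. Ccdc24 stood at 35.8 CPM in Cre- against 11.5 CPM in Tet tcKO amacrine nuclei and at 109 and 41.4 CPM in rods and cones, and B4galt2 at 53.7 and 22.6 CPM and at 117 and 81.0 CPM, so these overlapping genes were lower in Tet tcKO as well and their share in the Slc6a9 counts cannot be told apart.

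Slc6a5, whose neighbourhood at chr7:49559894-49613604 holds no overlapping gene, followed the amacrine annotation more closely. Amacrine nuclei held 22 UMIs and 39.4 CPM (24.7 to 59.6) in the Cre- library and 87 UMIs and 37.1 CPM (29.8 to 45.8) in Tet tcKO, giving a log2 ratio of -0.08 (-0.77 to 0.66), and they stood 3.04-fold and 2.72-fold above rods and cones. Rods and cones held 12.9 and 13.6 CPM, and ganglion cells held 1 and 4 UMIs. By cluster, Slc6a5 stood in Cre- at 128 CPM (34.8 to 327) from 4 UMIs in cluster 23 and had 9 UMIs in cluster 27, while the 14 Cre- nuclei of cluster 12 held 8 UMIs in 2 nuclei. In Tet tcKO clusters 12, 23 and 24 could not be separated, with 44.1 CPM (32.4 to 58.6), 42.3 CPM (26.5 to 64.0) and 29.8 CPM (16.3 to 50.0). In the cluster 13, described with the cholinergic genes, it had 1 and 3 UMIs. Slc6a5 was also among the 10 genes that led cluster 23 by fold. Among Tet tcKO amacrine nuclei, Slc6a5 was found in 13 of the 106 nuclei with Slc6a9, 12.3%, and in 5.98% of those without it, and in Cre- the shares were 5.00% and 3.50%. Rods and cones showed a like difference, with 5.63% and 2.20% in Tet tcKO and 2.62% and 1.63% in Cre-, so the shares do not set the amacrine nuclei apart.

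Slc17a8, the vesicular glutamate transporter, stood at 23.3 CPM (12.4 to 39.8) from 13 UMIs in 10 Cre- amacrine nuclei and at 25.6 CPM (19.6 to 33.0) from 60 UMIs in 28 Tet tcKO amacrine nuclei. Its log2 ratio of 0.14 (-0.74 to 1.13) held no difference beyond counting error, and it became -0.44 when each nucleus was counted once. In Tet tcKO, 41 of the 60 UMIs lay in 14 nuclei of cluster 12, and 14 came from a single nucleus. Rods and cones held 19.3 CPM in Cre- and 38.6 in Tet tcKO, giving a log2 ratio of 1.00 (0.71 to 1.30). The amacrine level was not distinguishable from theirs in Cre-, with a log2 value of 0.27 (-0.67 to 1.09), and lay below it in Tet tcKO, with -0.59 (-1.02 to -0.19). Slc17a8 was also counted in the Müller clusters, of which cluster 14 held 5 UMIs and 28.6 CPM in Cre-. Müller cluster 30 was the only one with 20 or more nuclei in both libraries, and it held 3 UMIs and 69.1 CPM (14.3 to 202) in the Cre- library and 12 UMIs and 178 CPM (91.9 to 311) in Tet tcKO. The log2 ratio in cluster 30 was 1.36 (-0.53 to 3.83), with 5 of the 12 UMIs in a single nucleus, and 0.59 (-1.55 to 3.17) without that nucleus. Cluster 37, present in Tet tcKO alone apart from 2 nuclei, held 12 UMIs in 12 nuclei, 147 CPM. The summed level of the Müller markers in cluster 30 was 4101 and 2356 CPM, against 942 and 755 CPM in rods and cones. The 3 vascular markers were raised there as well, with 1428 and 563 CPM against 200 and 131 CPM in rods and cones.

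**Figure D3:**
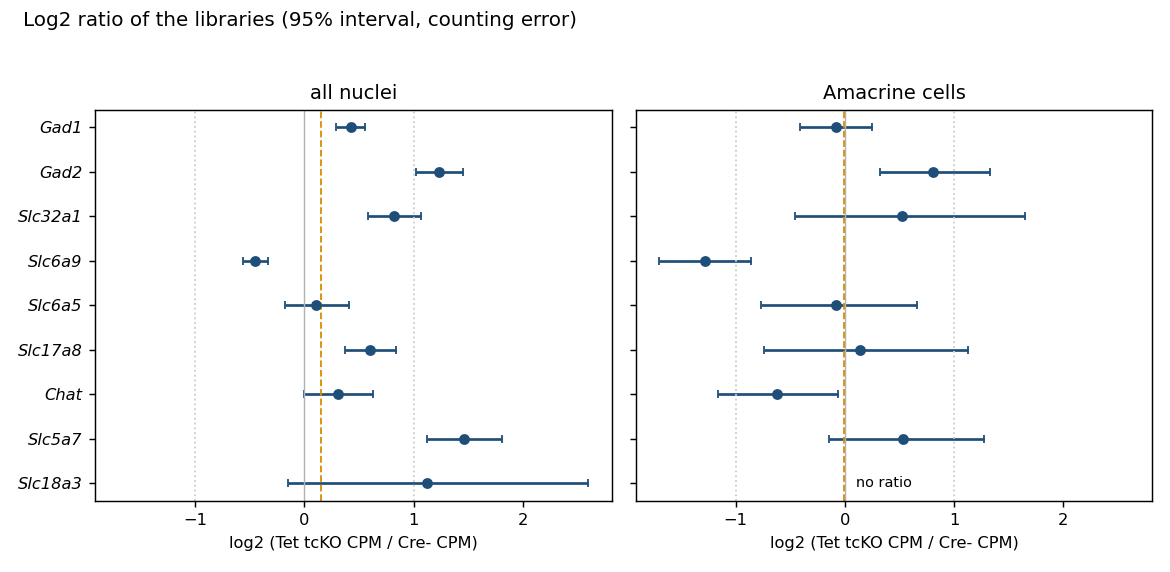
log2 ratio of Tet tcKO to Cre- for each gene over all nuclei and over amacrine nuclei, with exact 95% conditional intervals that cover counting error only. The solid line marks no difference, and the dashed line marks the median over all genes, 0.15 and -0.01. Slc6a9 had the lowest amacrine ratio, -1.28, and Gad2 had the highest, 0.81.

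Chat and Slc5a7 stood highest over rods and cones in Cre- among the 9 genes. Chat gave 40 UMIs in Cre- amacrine nuclei, 71.6 CPM (51.2 to 97.5), and 109 UMIs in Tet tcKO amacrine nuclei, 46.5 CPM (38.2 to 56.1). These levels were 8.61 and 6.76 times those of rods and cones, where Chat stood at 8.32 and 6.88 CPM, and ganglion cells held 2 and 3 UMIs. Slc5a7 gave 21 UMIs and 37.6 CPM (23.3 to 57.5) in the Cre- library and 127 UMIs and 54.2 CPM (45.2 to 64.5) in Tet tcKO, which was 5.93-fold and 3.00-fold above rods and cones. The log2 ratio over the amacrine class was -0.62 (-1.16 to -0.06) for Chat and 0.53 (-0.15 to 1.27) for Slc5a7. With each gene counted once per nucleus these became -0.80 and 0.10.

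Almost all of the amacrine Chat lay in cluster 13, which held 92.5% (79.6 to 98.4) of its Cre- UMIs and 93.6% (87.2 to 97.4) of its Tet tcKO UMIs. Cluster 13 also held all 21 amacrine Slc5a7 UMIs in Cre- and 85.8% (78.5 to 91.4) of them in Tet tcKO. The markers Sox2, Isl1, Megf10, Megf11, Fezf1 and Slit2, which mark starburst amacrine cells and are none of the 9 genes, summed to 2736 CPM in cluster 13 of Cre- and 3685 CPM in cluster 13 of Tet tcKO, against 723 and 678 CPM in rods and cones. Megf11 and Isl1 carried most of that sum, Fezf1 had 1 UMI in Cre- and none in Tet tcKO, and cluster 13 is called starburst-like on this basis. Within it, Chat stood at 318 CPM (224 to 439) in the Cre- library and 395 CPM (322 to 480) in Tet tcKO, giving a log2 ratio of 0.31 (-0.24 to 0.90). The lower Chat level over the whole amacrine class in Tet tcKO therefore did not appear inside the cluster that held the gene, and cluster 13 was 72 of 403 amacrine nuclei in Cre- and 122 of 1043 in Tet tcKO. Slc5a7 stood at 181 CPM (112 to 276) and 422 CPM (347 to 510) in cluster 13, giving a log2 ratio of 1.22 (0.54 to 1.97). Rods and cones differed in Slc5a7 in the same direction, with 6.34 and 18.1 CPM and a log2 ratio of 1.51 (1.03 to 2.02). Between cones alone that ratio was 1.64 (0.48 to 3.11), so the difference was not particular to cluster 13. Relative to rods and cones, cluster 13 was 38.3-fold and 57.4-fold higher for Chat and 28.5-fold and 23.4-fold higher for Slc5a7.

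Slc18a3, the vesicular acetylcholine transporter, was almost undetected although it lies inside the Chat locus on the same strand, at chr14:32184395-32186807 within chr14:32129369-32187946. It had 7 UMIs in Cre-, all of them in rods and cones, and 22 UMIs in Tet tcKO, of which 14 were in rods and cones, 5 in bipolar-annotated and 3 in amacrine nuclei. No UMI was found in Cre- amacrine nuclei, where 3 UMIs would have given 5.37 CPM, and the 3 UMIs in Tet tcKO amacrine nuclei gave 1.28 CPM. Of these 3, 2 lay in cluster 13. No statement about the starburst-like level of Slc18a3 could be made at this depth. The 72 Cre- nuclei of cluster 13 held 0 UMIs, and 3 UMIs there would have given 25.8 CPM.

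Outside the amacrine class, the cholinergic genes were counted in cluster 39, annotated as bipolar, which held 2 Cre- and 409 Tet tcKO nuclei. Its 10 leading genes held no bipolar marker. In its Tet tcKO nuclei 8 bipolar markers summed to 2611 CPM, against 2524 CPM in rods and cones, and 3 of 8 stood above them. The 6 amacrine markers summed to 1485 against 1234 CPM. The 6 starburst markers summed to 869 against 678 CPM, and 4 of 6 stood above in each list. The bipolar name is therefore used as the annotation only. Chat gave 56 UMIs in 41 of the Tet tcKO nuclei of cluster 39, 30.6 CPM (23.1 to 39.8), and Slc5a7 gave 70 UMIs in 49 nuclei, 38.3 CPM (29.9 to 48.4). No single nucleus decided these values, since the most in a nucleus was 4 UMIs for Chat and 5 for Slc5a7. In Cre-, the highest bipolar level was in cluster 3, with 16 Chat UMIs, 17.8 CPM, and 12 Slc5a7 UMIs, 13.4 CPM. Both clusters were deep and rich in nuclei that resembled simulated doublets, with 18.1% of cluster 39 and 25.2% of cluster 3 among the 5% of nuclei in their library with the highest doublet scores, and the part of doublets in these counts was not tested. Nuclei with 3 or more cholinergic UMIs numbered 6 in Cre-, all in cluster 13. In Tet tcKO there were 43, of which 26 were in cluster 13, 13 in cluster 39 and 1 in rods and cones.

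To compare how many nuclei carried each transmitter label, each nucleus was thinned to 500 UMIs, which equalises depth. A GABAergic transcript, Gad1 or Gad2, was then found in 10.2% (7.40 to 13.5) of Cre- and 11.8% (9.90 to 13.9) of Tet tcKO amacrine nuclei, against 3.76% and 6.22% of rods and cones. A glycinergic transcript, Slc6a9 or Slc6a5, was found in 7.20% (4.87 to 10.2) and 5.56% (4.25 to 7.13), against 5.86% and 5.54% of rods and cones. Shares at the photoreceptor level are read as background, so the glycinergic label did not separate the amacrine class from rods and cones at this depth in either library. That reference is high for Slc6a9, with 109 and 98.4 CPM against 32.5 and 23.4 CPM in ganglion cells. The label also pools Slc6a9 with Slc6a5, whose amacrine level was 3.04-fold and 2.72-fold above rods and cones. A cholinergic transcript was found in 4.22% (2.48 to 6.67) and 4.31% (3.16 to 5.73), against 0.748% and 1.49%. Before thinning, the shares in amacrine nuclei were 24.8% and 41.7% for the GABAergic, 17.9% and 15.5% for the glycinergic and 10.2% and 10.5% for the cholinergic label, and those in rods and cones were 9.44% and 24.5%, 15.3% and 21.5%, and 2.12% and 5.82%.

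Single clusters were more sharply marked than the class. In cluster 13 the cholinergic label was found in 20.8% (12.2 to 32.0) of thinned Cre- nuclei and 32.8% (24.6 to 41.9) of thinned Tet tcKO nuclei, and the glycinergic label in 5.56% and 0.820%. In cluster 23 the glycinergic label was found in 38.5% (20.2 to 59.4) of the 26 Cre- nuclei and 13.1% (8.93 to 18.2) of the 222 Tet tcKO nuclei. The GABAergic label was found in 0 of the 26 Cre- nuclei of cluster 23, where 3 nuclei would have given 11.5%, and in 10.4% (6.68 to 15.1) of the Tet tcKO nuclei. A difference in the GABAergic share of cluster 23 was therefore not detectable.

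Both inhibitory labels were rarely found in the same nucleus after thinning, in 0.744% of Cre- and 0.671% of Tet tcKO amacrine nuclei, with 0.219% and 0.248% in rods and cones. Before thinning, a glycinergic transcript was found in 16.0% of Cre- amacrine nuclei with a GABAergic one and in 18.5% of those without. In Tet tcKO these shares were 17.5% and 14.1%. In neither library were the labels separated from each other nucleus by nucleus at this depth.

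The pairing of cholinergic and GABAergic transcripts was read in single nuclei before thinning. Slc5a7 was found in 28 of 63 Tet tcKO amacrine nuclei with Chat, 44.4% (31.9 to 57.5), and in 45 of 980 without, 4.59%. In Cre- it was found in 6 of 29, 20.7%, and in 12 of 374, 3.21%. Gad1 was found in 26 of 63 Tet tcKO amacrine nuclei with Chat, 41.3% (29.0 to 54.4), against 24.6% without, and in 9 of 29 in Cre-, 31%, against 16.8%. Gad2 was found in 2 of the same 63 Tet tcKO nuclei, 3.17% (0.387 to 11), against 23.9% of those without Chat, and in 6.90% against 9.09% in Cre-. Among the 63 Tet tcKO nuclei with Chat the intervals for Gad1 and Gad2 did not overlap. Among the 29 Cre- nuclei they did, at 15.3 to 50.8 and 0.846 to 22.8. Both genes were read in the same nuclei of 1 library, and their counts are not corrected for length. The overlap of the intervals therefore neither tests a difference between the genes nor ranks them. Slc6a9 was found in 8 of 29 Cre- nuclei with Chat, 27.6%, against 13.9% without, and in 4 of 63 in Tet tcKO, 6.35%, against 10.4%. In rods and cones, Slc5a7 was found in 1.59% of Cre- nuclei with Chat against 0.868% without, and in 5.88% against 3.90% in Tet tcKO. After thinning, Chat was left in 10 Cre- nuclei, none of which had Slc5a7 or Gad1, against 1.78% and 7.89% of those without Chat, so the pairing was not detectable there. In Tet tcKO, 25 thinned nuclei had Chat, and 3 of them had Slc5a7, 4 had Gad1 and none had Gad2. These shares are not separated from the cluster a nucleus lay in.

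Over all nuclei, which mix the classes in the proportions captured, 8 of the 9 genes were higher and 1 was lower in Tet tcKO, with a median log2 ratio of 0.60 against 0.15 over all genes tested. Gad2, Slc5a7 and Slc18a3, the last on 7 and 22 UMIs, were 2-fold or more higher, and none was 2-fold or more lower. Over 11158 genes at 10 CPM or more in either library, 3.18% were 2-fold or more higher and 2.48% were 2-fold or more lower, and Slc18a3 was below that level. The split of 355 higher and 277 lower genes turned to 276 and 356 under TMM and 275 and 356 under median-of-ratios scaling. Gad2 stood at 20.1 CPM in Cre- against 47.1 CPM in Tet tcKO, giving a log2 ratio of 1.23 (1.02 to 1.45), and Slc5a7 at 7.82 and 21.5 CPM, giving a log2 ratio of 1.46 (1.12 to 1.81). Slc6a9, the gene that was lower, stood at 104 and 76.1 CPM, giving a log2 ratio of -0.45 (-0.56 to -0.33). With the classes of both libraries weighted as in Cre-, the log2 ratio was 0.97 for Gad2 and -0.33 for Slc6a9, while that of Chat turned from 0.31 to -0.25.

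The proportion of each gene's UMIs that lay in amacrine nuclei shifted with the size of the class. For all genes together this proportion was 4.85% in Cre- and 14.1% in Tet tcKO. Chat had 30.3% and 46.2% of its UMIs there, Slc5a7 23.3% and 35.6%, Gad2 16.9% and 36.6%, Gad1 13.9% and 28.3%, and Slc6a5 14% and 35.5%. Slc32a1, with 5.32% and 12.5%, and Slc17a8, with 5.78% and 12.2%, were placed much like the average transcript. Slc6a9, with 6.44% (5.12 to 7.99) and 10.5% (8.89 to 12.4), lay above the share of all genes in Cre- and below it in Tet tcKO. Rods and cones of the Cre- library held 65.8% of the UMIs of all genes together. They held 62.5% of Gad1 UMIs, near that share, 69.0% of Slc6a9 UMIs, slightly above it, and 47.7% of Chat UMIs, below it.

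**Figure D4:**
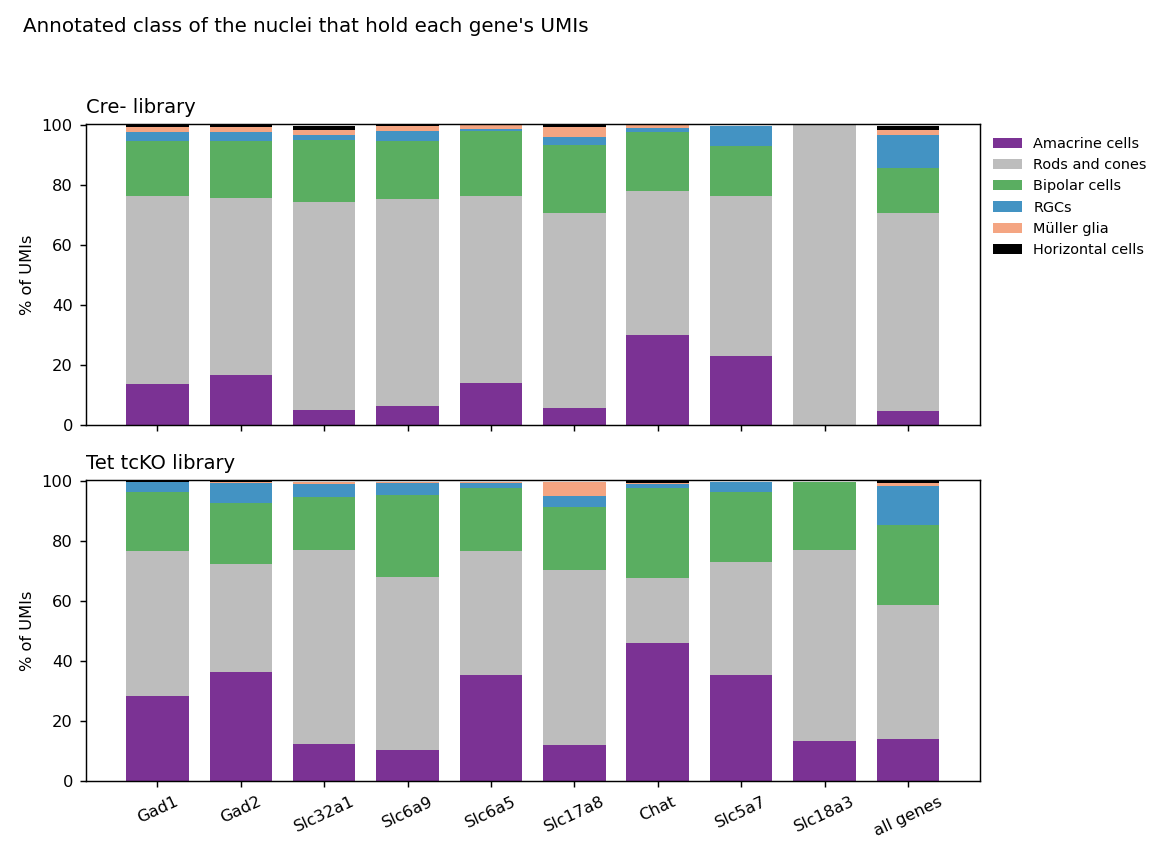
Percent of all UMIs of each gene found in amacrine nuclei, rods and cones, bipolar-annotated nuclei, RGCs, Müller glia and horizontal cells, for Cre- and Tet tcKO. The same split over all genes is shown for comparison. Chat had the largest amacrine share in both libraries, 30.3% and 46.2%, against 4.85% and 14.1% for all genes together.

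Related genes were read from fixed lists in amacrine nuclei. Of 8 further genes of GABA handling, 7 reached 10 CPM in either library, none was 2-fold or more higher and 1 was 2-fold or more lower in Tet tcKO, with a median log2 ratio of 0.21. The GABA uptake transporter Slc6a11 stood at 111 CPM in Cre- and 128 in Tet tcKO, and the amino acid transporter Slc38a1 at 165 and 140 CPM. The lower gene, named after its values were seen, was the betaine and GABA transporter Slc6a12, with 12 UMIs and 21.5 CPM in Cre- and 8 UMIs and 3.42 CPM in Tet tcKO, giving a log2 ratio of -2.65 (-4.15 to -1.24).

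Of 6 genes of glycine handling, 3 reached 10 CPM, none was 2-fold or more higher and 1 was lower, the serine hydroxymethyltransferase Shmt2, with 30.4 CPM in Cre- against 12.8 CPM in Tet tcKO. Dld, a subunit of the glycine cleavage system, stood at 39.4 and 41.4 CPM. Of 6 genes of acetylcholine handling, 4 reached 10 CPM and none passed 2-fold in either direction, with a median log2 ratio of -0.22. The choline kinase Chka stood at 149 and 132 CPM, the choline transporter Slc44a1 at 77.0 and 98.6 CPM, acetylcholinesterase (Ache) at 51.9 and 43.6 CPM, and its membrane anchor Prima1 at 96.7 and 53.4 CPM, giving a log2 ratio of -0.86 (-1.33 to -0.37). Of the list of monoamine and nitric oxide genes, 3 of 5 reached 10 CPM and 2 were 2-fold or more lower, the vesicular monoamine transporter Slc18a2 with 39.4 and 13.2 CPM and the nitric oxide synthase Nos1 with 32.2 and 11.1 CPM. The vesicular glutamate transporter Slc17a7, which fills photoreceptor and bipolar vesicles, stood at 129 CPM in Cre- against 87.9 CPM in Tet tcKO amacrine nuclei. Of 7 neuropeptide genes, 2 reached 10 CPM and none passed 2-fold.

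The genes whose levels ran most alike with a member were sought over 55 groups of 20 or more nuclei, a group being a cluster within a library, among 14403 genes by Pearson correlation of log2(CPM + 10). These groups share libraries and differ in depth, and the correlations are a description. Chat was most like Slc10a4 (0.82), a transporter of the bile acid carrier family, Sox2ot (0.81) and P2rx2 (0.79), and Slc5a7 was most like P2rx2 (0.78), Slc10a4 (0.76) and Pappa2 (0.70). Chat and Slc5a7 correlated at 0.76 with each other, whereas Chat correlated at 0.45 with Gad1 and 0.04 with Gad2. Gad1 was most like Cbln2 (0.78), Gm14204 (0.77) and Chrm2 (0.77), and Gad2 like Glra3 (0.81), Necab1 (0.78) and Cbln2 (0.75), with 0.64 between the decarboxylases. Gm14204 is the transcript that overlaps Slc32a1 on the other strand, and Slc32a1 itself was most like Scoc (0.75), Lamp5 (0.68) and Bub1b (0.68). Slc6a9 was most like Prom1, Dscaml1 and Ccdc163 (0.76 each) and correlated at 0.73 with Slc6a5, which was most like Ptprk (0.67), Abcb10 (0.65) and Trpc4 (0.64). Slc17a8 was most like Ust (0.83), Gm29260 (0.82) and Col9a1 (0.82), and Gm29260 was among the leading genes of Müller clusters 30 and 37. Slc18a3 was most like Gm48821 (0.58), Dll4 (0.57) and Lmo2 (0.55) on very few UMIs.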

How the data were processed

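Nuclei were isolated from whole P21 retinas by Dounce homogenisation and captured with the PIPseq kit, version 4.0, which reads the 3′ ends of polyadenylated RNA. The authors aligned the reads to GRCm39 with pipseeker 3.3.0, removed ambient RNA with CellBender at a cell probability of 0.99, discarded nuclei outside 500 to 10000 transcripts or with 20% or more mitochondrial transcripts, and clustered and annotated them. The gene annotation and the use of strand in counting are not stated in the sources used here. In the deposited matrices each value is a whole count of UMIs for 1 gene in 1 nucleus, taken after ambient removal and not normalized. The deposited cell table gives each nucleus its totals, its mitochondrial percent, a size factor (a ratio of the authors), the cluster and the cell class, and the deposited gene table gives a signal per genotype, the mean of counts per 10000 over nuclei. Matrix sums equalled the cell table in all nuclei, and recomputed means matched the gene table for all 32227 genes within 1e-06. The gene table gives Gad1 in 1960 nuclei and the matrices in 1733. The libraries shared 1 barcode. No doublet removal is stated, and doublets were scored here against simulated ones and left in, with leaving out the top 5% as an alternative.

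For each population, counts were added up over nuclei and divided by its total. With 1 library per genotype, and nuclei not being replicates, no test was run. Ratios needed more than 3 UMIs in at least 1 library. Genes for the background were those at 10 CPM or more in either library. All 9 members are named, along with up to 4 genes of each related list (those highest in amacrine nuclei) and the 3 genes most like each member. Values of some listed genes are not reported here. The members, lists and rules were chosen with earlier results of these data known. Alternatives were trimmed-mean (TMM, edgeR 4.0.16) and median-of-ratios scaling, other filters and thinning depths, and leaving out nuclei, doublets or clusters. The scripts were tested on simulated counts. Python 3.11.15, numpy 2.4.6, scipy 1.17.1, pandas 2.3.3, scikit-learn 1.9.0, matplotlib 3.10.9 and R 4.3.3 were used.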

Additional observations from a re-analysis of the deposited data

How the results depend on the processing

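The median of the members' log2 ratios was 0.60 over all nuclei, and from 0.49 to 0.81 under the alternatives. Over amacrine nuclei it was 0.03, and from -0.27, without the largest cluster of each library, to 0.18, so its sign was not stable. Of 132 values of single genes, 124 kept their sign and 5 left the counting interval. The 8 sign changes were in Gad1, Slc6a5, Slc17a8 and Chat, all with counting intervals that reach 0. The 5 values were Gad2 (0.97), Slc6a9 (-0.33) and Chat (-0.25) over all nuclei at the Cre- class shares, and amacrine Gad1 with the rod and cone level subtracted (-0.62) or without the largest cluster of each library (-0.67). The amacrine log2 ratio of Slc6a9 ranged from -1.30 to -0.98, that of Gad2 from 0.33 to 0.90, and that of Chat from -1.01, without cluster 13 (an alternative added after the data were seen), to -0.53. TMM or median-of-ratios scaling moved the median over all genes from 0.15 to 0.04 over all nuclei and from -0.01 to 0.09 or 0.06 over amacrine nuclei.

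Counts of genes past 2-fold depended on the filter and, in their balance, on the scaling. Over all nuclei, 355 higher and 277 lower genes became 1049 and 819 at a filter of 1 CPM, and 1982 and 1423 with none. Over amacrine nuclei, 697 higher and 698 lower genes became 1276 and 1251 under both. Under TMM the counts were 276 and 356 over all nuclei and 892 and 555 over amacrine nuclei, and under median of ratios 275 and 356, and 864 and 642. Shares of amacrine nuclei moved with thinning, and thinning to 1000 UMIs also left out shallower nuclei, 178 of 403 in Cre-. In Cre-, without thinning, thinned to 1000 UMIs and with 2 UMIs required, the GABAergic share was 24.8%, 25.3% and 5.21%, and the glycinergic share was 17.9%, 13.8% and 3.97%. Both labels together were found in 3.97% without thinning and 3.11% at 1000 UMIs, and the cholinergic label in 10.2% and 9.33%. In Tet tcKO the GABAergic share was 41.7%, 24.3% and 9.78%, the glycinergic 15.5%, 9.00% and 3.07%, and both labels together 7.29%, 1.92% and 0.192%, and the cholinergic share was 10.5% without thinning and 6.98% at 1000 UMIs. No paired analysis was possible because each genotype was 1 library. Genotype, library, depth and pooled animals cannot be told apart, and sparse counts limit Slc18a3, Slc17a8 and the smaller clusters.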
